A study of Danio rerio with 33 samples.

Results

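The comparison described here set whole zebrafish embryos exposed to the extract of air particle filter 28, taken beside a traffic road in Barcelona in the cold season, against embryos given only the vehicle methanol. Its members were the 6 libraries of these groups whose library numbers begin with 37 (called series 37 here), 3 of road filter 28 and 3 of vehicle, out of 33 libraries in the whole data set. Their count columns were chosen by library name, and no measured value entered that rule. The comparison itself was chosen with earlier results of these data known. Each library held RNA from 1 pool of 10 wild-type embryos, exposed for 24 h between 96 and 120 hours after fertilisation. Particles had been extracted from the filter with dichloromethane and methanol, and the extract was taken up in methanol. The road filter 28 pools carry the numbers 2, 3 and 4 and the vehicle pools the numbers 4, 5 and 6 as replicates. All 3 road filter 28 pools received the extract of a single filter, so they repeat the exposure and not the sampling of air. Each sample title carries a further number that is not explained, so an equal dose in the pools is not known. Series 37 also holds 3 libraries of road filter 26, 2 of harbour filter 36 and 3 of harbour filter 38, and no library of an unexposed (mock) filter.

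Organic extracts of traffic particles commonly carry polycyclic aromatic hydrocarbons. Many of these compounds bind the aryl hydrocarbon receptor (AhR), a transcription factor that rests in the cytoplasm with chaperones, enters the nucleus on binding a ligand, pairs with Arnt and switches on genes of the cytochrome P450 family 1, whose enzymes oxidise the same compounds. The AhR repressor, another target, competes with the receptor for Arnt. Cells also meet reactive compounds with the Nrf2 pathway (antioxidant enzymes), with heat shock chaperones, and with proteins that bind metals, among them ferritin, which stores iron, and metallothionein, which holds zinc and copper.

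Library totals ran from 27610181 to 37020687 counts for road filter 28 and from 20206672 to 30548926 for vehicle. Within these groups, pairs of libraries differed by a chi-square of 6.16 to 11.32 per degree of freedom, so no library was a copy of another. On the first principal component of the 14 libraries, which held 41.2% of the variance, road filter 28 lay between -26.91 and -21.57, harbour filter 36 between -24.13 and -22.8, road filter 26 between 40.23 and 45.45, and vehicle between -36.74 and -32.18. Road filter 28 replicate 3 had a mean insert size of 317.5 bases, against 258.5 to 286.5 in the other libraries of the series.

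Few genes differed between road filter 28 and vehicle at the threshold used. Of 21994 genes tested, 41 passed an adjusted p of 0.05 with the quasi-likelihood test of edgeR, which is 0.186% of the genes tested: 34 were higher (0.155%) and 7 were lower (0.0318%) than with vehicle. Of the higher genes, 14 were higher by at least 2-fold, and 3 of the 7 lower genes were lower by at least 2-fold. Among the genes that rose were 4 targets of AhR, 5 ferritin genes, the metallothionein gene mt2 and the peroxide-reducing enzyme gene prdx1. All 41 had groups that did not overlap, as did 13.0% of all genes tested (7.19% higher and 5.85% lower). The median log2 fold change over all genes was 0.0035. Without the adjustment, 1461 genes (6.64%) had a p under 0.05. DESeq2 called 116 genes, 71 higher and 45 lower, and among them were 40 of the 41. Genes said below not to pass did not pass with edgeR, and some of them passed with DESeq2. Leaving out road filter 28 replicate 2 left 22 genes, leaving out vehicle replicate 5 left 23 and leaving out vehicle replicate 6 left 27. Of the 34 called genes with a name, 8 passed under all 12 alternative analyses run: cyp1a, cyp1b1, cyp1c1, fthl28, fthl29, fthl31, mt2 and prdx1.

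**Figure D1:**
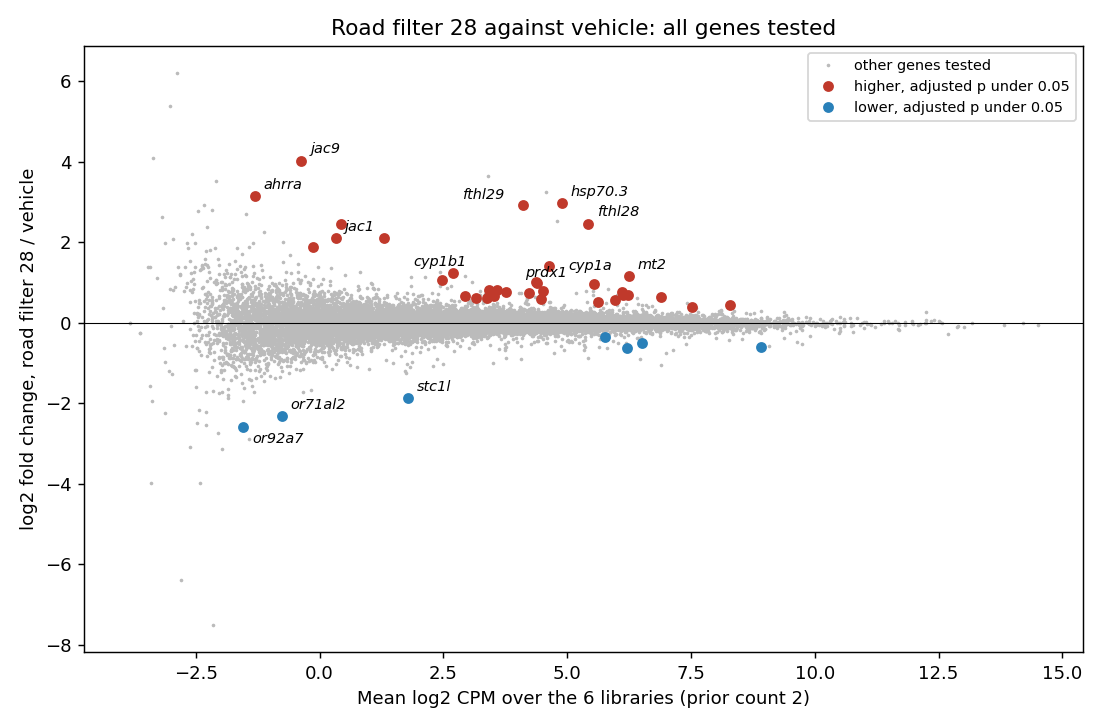
Each point is 1 gene, placed by its mean log2 CPM over the 6 libraries and by its log2 fold change of road filter 28 over vehicle. Red points are the 34 genes that were higher and blue points the 7 that were lower at an adjusted p under 0.05, and the genes at the far left with large fold changes that stay grey have very low counts.

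Levels below are in CPM (read counts relative to the library total, scaled by TMM in edgeR), fold changes are on the log2 scale with their standard error (SE), and adjusted p-values are from edgeR over all 21994 genes. Whole embryos mix all cell types, so more RNA per cell and more cells of a type cannot be told apart in any of these values.

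Targets of AhR were higher, led by its repressor and by 3 cytochrome P450 genes. Of the 13 targets tested, 4 rose and 0 fell, and the median log2 fold change of the 13 was 0.25. The gene cyp1a (ENSDARG00000098315), the classic AhR target, whose enzyme oxidises aromatic hydrocarbons, had 64.7, 69.6 and 61.5 CPM with road filter 28, against 30.4, 30.202 and 40.0 CPM with vehicle. The lowest road filter 28 library stood well above the highest vehicle library, and the log2 fold change was 0.96 (SE 0.10, adjusted p = 0.000111 by edgeR). The related cyp1b1 had 7.08, 8.22 and 8.55 CPM, against 3.70, 4.03 and 3.70 CPM with vehicle, which again did not overlap (log2 fold change 1.06, SE 0.14, adjusted p = 0.00148 by edgeR). A further family member, cyp1c1, had 25.4, 24.3 and 23.0 CPM with road filter 28, against 13.3, 15.1 and 15.2 CPM with vehicle. Its groups were also apart, with a log2 fold change of 0.73 (SE 0.08, adjusted p = 0.000162 by edgeR).

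The AhR repressor gene ahrra was the target with the greatest fold change and a very low level. It had 0.714, 0.970 and 1.16 CPM with road filter 28, against 0.0987, 0.177 and 0.0336 CPM with vehicle, so every exposed library was above every vehicle library. Its log2 fold change was 3.15 (SE 0.49, adjusted p = 0.00754 by edgeR). Without vehicle replicate 6, the lowest of its group, the adjusted p was 0.0738. The second repressor gene ahrrb had a log2 fold change of 0.20 with a 95% interval of -0.73 to 1.14, wide enough to hold large changes in either direction.

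The other targets did not pass. The gene cyp1c2, which lies next to cyp1c1 in the zebrafish RefSeq table (assembly GRCz12tu), had 4.43, 5.07 and 4.42 CPM with road filter 28, against 3.40, 3.36 and 3.09 CPM with vehicle. These groups were apart, but the adjusted p was 0.144 by edgeR for a log2 fold change of 0.50. The quinone reductase gene nqo1 had a log2 fold change of 0.25 (95% interval 0.048 to 0.46, adjusted p = 0.598 by edgeR) and the sulfotransferase gene sult6b1 had 0.29 (95% interval 0.032 to 0.55, adjusted p = 0.693 by edgeR). The intervals of cyp1d1 (-0.27 to 0.20), tiparp (-0.092 to 0.22), foxq1b (-0.18 to 0.37), foxq1a (-0.37 to 0.23) and slc16a9a (-0.25 to 0.41) all held 0.

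The receptor and its partners formed a separate list of 8 genes, of which 0 passed the edgeR threshold. An unadjusted p under 0.05 was found for 1 of the 8, against 6.64% of all genes. The gene with that p was ahr2, the receptor through which zebrafish embryos chiefly respond to such ligands. It had 171, 172 and 163 CPM with road filter 28, against 140, 143 and 134 CPM with vehicle. The groups did not overlap, and the difference was small, with a log2 fold change of 0.28 (SE 0.063, adjusted p = 0.114 by edgeR).

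**Figure D2:**
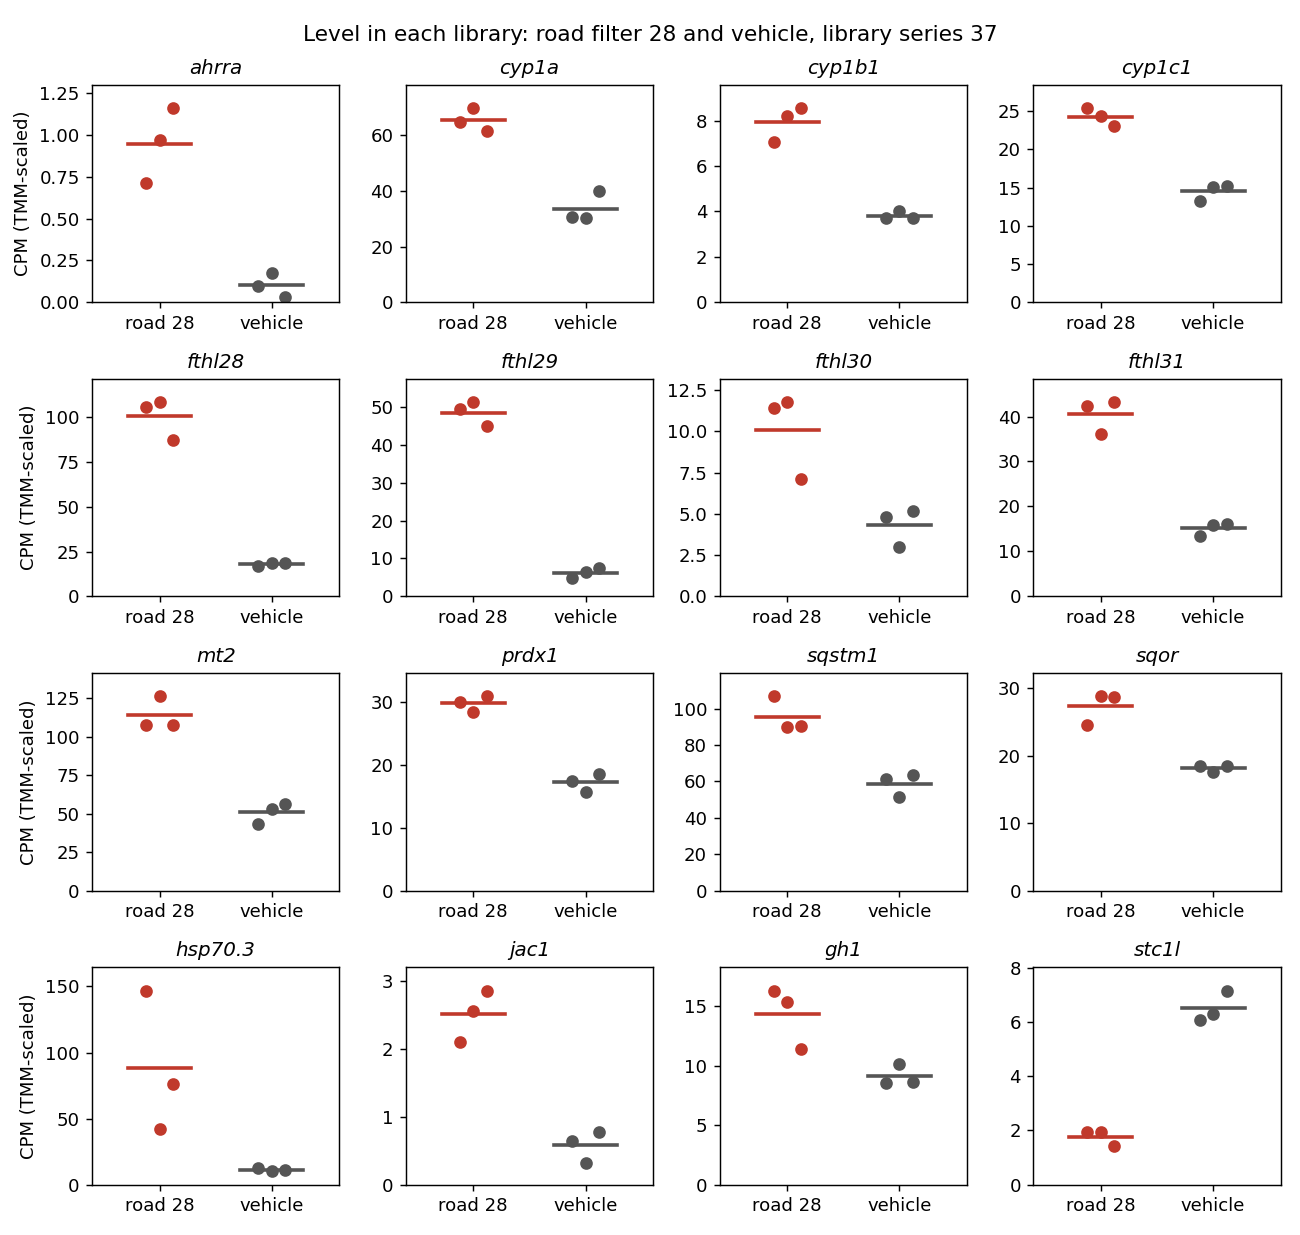
Each panel is 1 gene, each point 1 library and each bar the mean of 3 libraries, in TMM-scaled CPM on an axis that starts at 0, with road filter 28 (red) left of vehicle (grey). In all 16 panels the groups do not overlap, while the 3 road filter 28 libraries of hsp70.3 differ several-fold among themselves.

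Ferritin genes had the changes with the smallest p of all genes tested. Ferritin heavy chains oxidise iron and form the shell that stores it. Of 7 heavy chain genes tested, 5 rose and 0 fell, with a median log2 fold change of 1.24. The gene fthl29 had 49.3, 51.2 and 45.0 CPM with road filter 28, against 4.79, 6.39 and 7.53 CPM with vehicle. That was 7.66-fold, a log2 fold change of 2.94 (SE 0.16, adjusted p = 6.44e-08 by edgeR). The gene fthl28 had 106, 108 and 87.2 CPM, against 16.9, 18.7 and 18.9 CPM with vehicle (log2 fold change 2.47, SE 0.15, adjusted p = 8.17e-08 by edgeR). Both genes were far apart between the groups and close together within them.

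Smaller changes were found for the next members of the family. The gene fthl31 had 42.4, 36.06 and 43.1 CPM with road filter 28, against 13.3, 15.8 and 16.2 CPM with vehicle (log2 fold change 1.41, SE 0.12). The gene fthl30 had 11.4, 11.8 and 7.14 CPM, against 4.79, 2.97 and 5.15 CPM with vehicle (log2 fold change 1.24, SE 0.19). Its call was lost under 3 of the 12 alternative analyses, among them the one without road filter 28 replicate 2. The gene fthl27 had 202, 212 and 222 CPM, against 155, 146 and 180 CPM with vehicle. Its log2 fold change of 0.40 (SE 0.078) passed narrowly, at an adjusted p of 0.048 by edgeR, and was lost under 9 of the 12 alternative analyses.

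These 5 genes stand in a row in the RefSeq table, in the order fthl27, fthl28, fthl30, fthl31 and fthl29 with 0 other genes between them. The 2 heavy chain genes that did not pass, fth1a and fth1b, lie on other chromosomes. The gene fth1a had 693, 750 and 754 CPM with road filter 28, against 701, 575 and 747 CPM with vehicle, with a 95% interval of the log2 fold change of -0.057 to 0.30. The gene fth1b had 26.91, 28.78 and 28.4 CPM, against 27.9, 28.2 and 28.82 CPM with vehicle, with an interval of -0.20 to 0.17. In both genes the groups overlapped. How reads of such similar neighbours were shared out in counting is not stated in the labels or file headers, and the value of a single fthl gene is less sure than that of the group.

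Among 21 genes of iron, heme and metal handling, 7 rose and 0 fell: the 5 fthl genes, mt2 and SLC30A8. The metallothionein gene mt2 had 108, 126 and 108 CPM with road filter 28, against 43.3, 52.8 and 56.5 CPM with vehicle. The groups were apart, with a log2 fold change of 1.16 (SE 0.12, adjusted p = 9.17e-05 by edgeR). The gene SLC30A8, a transporter that loads zinc into insulin granules in the pancreas, had 9.42, 9.08 and 10.4 CPM, against 5.18, 6.71 and 6.15 CPM with vehicle. Its log2 fold change of 0.67 (SE 0.13, adjusted p = 0.044 by edgeR) was lost in each of the 6 analyses that left out 1 library.

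Among 25 genes of the Nrf2 pathway and antioxidant defence, 2 rose and 0 fell. The peroxiredoxin gene prdx1, whose enzyme breaks down hydrogen peroxide, had 30.1, 28.5 and 30.9 CPM with road filter 28, against 17.5, 15.7 and 18.6 CPM with vehicle (log2 fold change 0.79, SE 0.11, adjusted p = 0.00193 by edgeR). The gene sqstm1, which encodes a receptor that carries tagged proteins to autophagy, had 107, 89.7 and 90.5 CPM, against 61.1, 51.7 and 63.8 CPM with vehicle (log2 fold change 0.70, SE 0.085, adjusted p = 0.000621 by edgeR). Neither gene had overlapping groups, and the call of sqstm1 was lost under 1 of the 12 alternative analyses. In the rest of the list the values were small and mostly positive. The median log2 fold change of the 25 genes was 0.22, against 0.0035 over all genes tested, 24 had a positive sign, and 11 had an unadjusted p under 0.05 in the higher direction, as did 3.74% of all genes.

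Heat shock genes were uneven. Of 27 tested, 2 rose and 0 fell, and 12 had an unadjusted p under 0.05 in the higher direction and 1 in the lower, against 3.74% and 2.91% of all genes. The inducible chaperone gene hsp70.3 (ENSDARG00000021924) had 147, 41.9 and 75.9 CPM with road filter 28, against 12.2, 10.5 and 10.96 CPM with vehicle. Every exposed library was above every vehicle library, but the exposed libraries spanned a wide range and replicate 2 was the highest. The log2 fold change was 2.98 (SE 0.48, adjusted p = 0.0101 by edgeR), and the call was lost under 4 of the 12 alternative analyses. These left out road filter 28 replicate 2, vehicle replicate 5 or vehicle replicate 6, or used all 4 pools of road filter 28. The gene hspa4a, which helps Hsp70 chaperones release their bound protein, had 80.4, 75.6 and 72.5 CPM, against 51.2, 54.4 and 49.3 CPM with vehicle (log2 fold change 0.56, SE 0.11, adjusted p = 0.0474 by edgeR). That call was lost in each of the 6 analyses that left out 1 library.

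The other Hsp70 genes are given after their values were seen. The gene hsp70.1 averaged 45.4 ± 39.4 CPM with road filter 28 and 3.53 ± 0.655 CPM with vehicle (SD, n = 3 each), the gene hsp70l averaged 86.3 ± 74.9 CPM with road filter 28 and 8.97 ± 1.53 CPM with vehicle, and the gene hsp70.2 averaged 77.2 ± 66.5 CPM with road filter 28 and 13.4 ± 1.96 CPM with vehicle. Their log2 fold changes lay between 2.53 and 3.66, with adjusted p-values of 0.143, 0.149 and 0.205 by edgeR. In all of them the SD with road filter 28 was near the mean. The genes hsp70.1, hsp70.2 and hsp70.3 are neighbours in the RefSeq table, so reads could be shared among them. The chaperone gene hsp90aa1.2 had 235, 192 and 185 CPM with road filter 28, against 135, 152 and 148 CPM with vehicle, which did not overlap and did not pass (adjusted p = 0.109 by edgeR).

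Subunits of the proteasome, the complex that breaks down tagged proteins, formed a further list in which 0 of 34 passed. The median log2 fold change was 0.18, and 33 of the 34 had a positive sign, against 51.1% of all genes tested. An unadjusted p under 0.05 in the higher direction was found for 19, against 3.74% of all genes. Summed over the list, the level was 1679.9 to 1749.0 CPM with road filter 28 and 1484.55 to 1564.8 CPM with vehicle. The smallest p was that of psmd11b, which had 36.78, 36.01 and 37.14 CPM with road filter 28, against 33.06, 28.44 and 28.68 CPM with vehicle (log2 fold change 0.29, SE 0.074, adjusted p = 0.207 by edgeR).

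Some calls were on none of the lists. The gene sqor, whose enzyme oxidises hydrogen sulfide in mitochondria, had 24.6, 28.76 and 28.69 CPM with road filter 28, against 18.5, 17.6 and 18.5 CPM with vehicle (log2 fold change 0.59, SE 0.078, adjusted p = 0.00148 by edgeR). The gene TSTD1, related to enzymes that move sulfur between thiosulfate and other acceptors, had 13.9, 13.6 and 14.7 CPM, against 8.59, 7.28 and 8.27 CPM with vehicle (log2 fold change 0.81, SE 0.12, adjusted p = 0.00551 by edgeR). The gene aifm4, of the family of apoptosis-inducing factors, had 16.2, 16.1 and 15.1 CPM, against 9.57, 8.62 and 9.01 CPM with vehicle (log2 fold change 0.80, SE 0.12, adjusted p = 0.00551 by edgeR). All of these had narrow groups that did not overlap, and each call was lost under 2 of the 12 alternative analyses, which for TSTD1 and aifm4 included the one without vehicle replicate 5.

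Jacalin-like lectins, proteins that bind sugars, were at very low levels and rose in 2 of 6 genes tested, with 0 lower. The gene jac1 had 2.11, 2.56 and 2.86 CPM with road filter 28, against 0.642, 0.318 and 0.773 CPM with vehicle (log2 fold change 2.11, SE 0.29, adjusted p = 0.0022 by edgeR). Its call was lost under 2 of the 12 alternative analyses. The gene jac9 had 0.505, 5.17 and 3.88 CPM, against 0.247, 0.212 and 0.135 CPM with vehicle. Replicate 2 of road filter 28 was near the vehicle level, and the log2 fold change of 4.03 (SE 0.78) passed narrowly, at an adjusted p of 0.048 by edgeR and was lost under 9 of the 12 alternative analyses. The jac genes lie close together in the RefSeq table, with jac8 next to jac9, so their single values are uncertain too.

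Among 8 pituitary hormone genes, gh1, the growth hormone gene, rose, and 0 fell. It had 16.3, 15.4 and 11.4 CPM with road filter 28, against 8.59, 10.1 and 8.64 CPM with vehicle (log2 fold change 0.66, SE 0.13, adjusted p = 0.0474 by edgeR). The prolactin gene prl had 1.933, 2.372 and 1.196 CPM, against 0.839, 1.024 and 1.211 CPM with vehicle, and these groups overlapped. Of the 8 hormone genes, 7 had a positive sign, and the median was 0.61. An unadjusted p under 0.05 was found for 4 in the higher direction and 0 in the lower, against 3.74% and 2.91% of all genes. Their summed level was 20.8 to 28.2 CPM with road filter 28 and 16.3 to 18.4 CPM with vehicle. Among 21 globin and red cell genes, the embryonic globin gene hbae1.3 rose and 0 fell, with 64.2, 51.7 and 60.4 CPM against 35.97, 41.3 and 45.8 CPM with vehicle (log2 fold change 0.51, SE 0.10, adjusted p = 0.0496 by edgeR). In that list 18 genes had a positive sign and the median was 0.23. At an unadjusted p under 0.05, 7 were higher and 0 lower, against 3.74% and 2.91% of all genes. Its summed level was 676.0 to 761.3 CPM with road filter 28 and 553.0 to 634.6 CPM with vehicle. The calls of gh1 and hbae1.3 were each lost under 8 of the 12 alternative analyses.

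The other higher genes with a name had log2 fold changes between 0.45 and 0.77. The gene pkhd1l1.1, a large membrane protein related to fibrocystin, had 90.1, 91.4 and 86.6 CPM with road filter 28, against 59.3, 56.1 and 49.6 CPM with vehicle (log2 fold change 0.70, SE 0.074, adjusted p = 0.000111 by edgeR). Its call was lost under 1 of the 12 alternative analyses. The gene stm, which encodes the otolith protein starmaker, had 360, 313 and 419 CPM, against 269, 272 and 260 CPM with vehicle (log2 fold change 0.45, SE 0.086, adjusted p = 0.0474 by edgeR), a call lost under 9 of the 12 alternative analyses. The rest were the muscle actin gene actc1c (0.77), the gap junction gene gjc4a.2 (0.76), the membrane protease gene tmprss13a (0.62) and the gene desi1b (0.61), which removes SUMO tags. The first 3 of these calls were each lost under 8 of the 12 alternative analyses and that of desi1b under 7. Another 6 higher genes had a provisional name or none.

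Of the 7 lower genes, 1 had a provisional name and 0 were on any list. The stanniocalcin gene stc1l, of a hormone family that limits calcium uptake in fish, had 1.93, 1.94 and 1.41 CPM with road filter 28, against 6.07, 6.29 and 7.16 CPM with vehicle. The groups were far apart, with a log2 fold change of -1.88 (SE 0.24, adjusted p = 0.00105 by edgeR), and the call was lost under 2 of the 12 alternative analyses, both of which took in libraries of series 35. The calcium channel gene trpv6, from the list of ionocyte transport genes, had 108, 120 and 89.6 CPM, against 59.9, 78.1 and 69.2 CPM with vehicle, and did not pass (log2 fold change 0.61, SE 0.14, adjusted p = 0.127 by edgeR). Of the 24 genes tested in that list, 0 passed with edgeR, and the median was 0.054. At an unadjusted p under 0.05, 5 were higher and 2 lower, against 3.74% and 2.91% of all genes.

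Other lower genes were closer to the threshold. The gene diabloa, whose mitochondrial protein blocks inhibitors of apoptosis, had 62.4, 48.6 and 70.6 CPM with road filter 28, against 81.8, 88.9 and 107 CPM with vehicle (log2 fold change -0.62, SE 0.12, adjusted p = 0.0496 by edgeR). The transcription factor gene sox12 had 47.6, 45.3 and 51.0 CPM, against 62.1, 61.6 and 61.2 CPM with vehicle (log2 fold change -0.36, SE 0.058, adjusted p = 0.0101 by edgeR). In both the groups did not overlap, and the call of diabloa was lost under 8 of the 12 alternative analyses and that of sox12 under 5. Lower too were the olfactory receptor genes or92a7 (log2 fold change -2.59, SE 0.50) and or71al2 (-2.31, SE 0.43), both below 1.5 CPM in every library of the comparison. The call of or92a7 was lost under 10 of the 11 alternative analyses that gave it a value, and that of or71al2 under 7 of the 12.

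**Figure D3:**
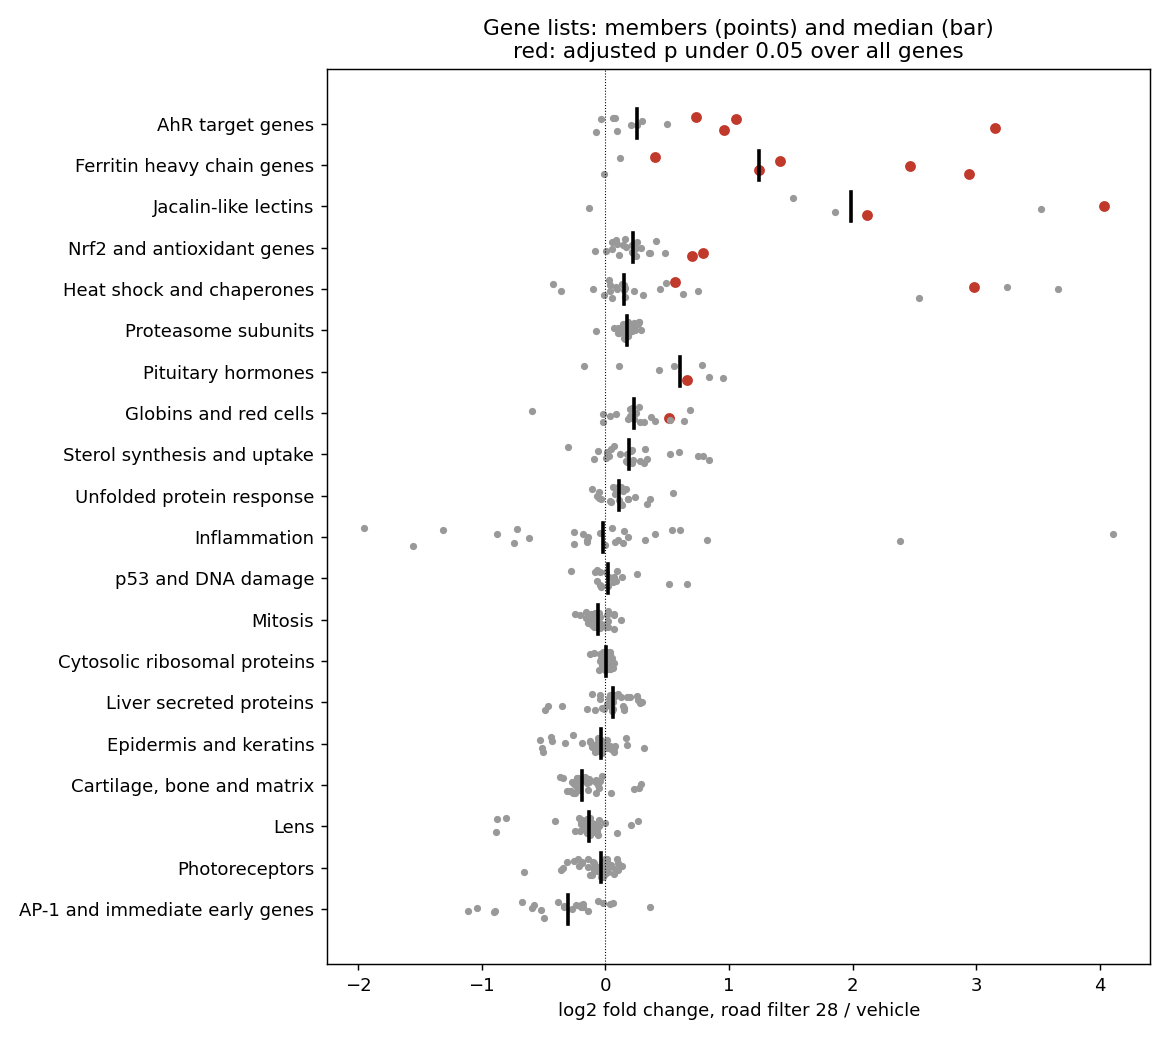
Each point is the log2 fold change of road filter 28 over vehicle of 1 tested gene in 20 of the 46 gene lists, red where the adjusted p was under 0.05, and each bar is the median of the list. Ferritin genes and jacalin-like lectins have the medians farthest above 0 (1.24 and 1.99), and immediate early genes the median farthest below it (-0.30), with 0 of them past the threshold.

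In 38 of the 46 lists examined, 0 genes passed in either direction with edgeR, and their medians lay between -0.30 and 0.19. The lowest median was that of 24 AP-1 and immediate early genes, switched on within minutes of a stimulus, many of which encode transcription factors. In this list 21 had a negative sign and 14 an unadjusted p under 0.05 in the lower direction, as did 2.91% of all genes. The growth-restraining gene btg2 had 89.5, 62.3 and 104 CPM with road filter 28, against 126, 186 and 211 CPM with vehicle (log2 fold change -1.04, SE 0.22, adjusted p = 0.075 by edgeR). The gene fosb had 3.27, 3.58 and 4.67 CPM, against 5.03, 8.69 and 7.57 CPM with vehicle (log2 fold change -0.90, SE 0.19, adjusted p = 0.0836 by edgeR). In both genes the groups did not overlap and vehicle replicate 4 was the lowest of its group.

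Sterol synthesis genes had the highest median among the lists without a call, 0.19 over 26 genes. Of these, 5 had an unadjusted p under 0.05 in the higher direction and 1 in the lower, against 3.74% and 2.91% of all genes. The gene hmgcra, of the rate-limiting step, had 63.9, 92.9 and 75.6 CPM with road filter 28, against 46.9, 57.0 and 26.5 CPM with vehicle (log2 fold change 0.84, SE 0.24, adjusted p = 0.308 by edgeR). The gene cyp51 had 44.06, 67.8 and 54.6 CPM, against 33.9, 36.6 and 26.33 CPM with vehicle (log2 fold change 0.79, SE 0.21, adjusted p = 0.249 by edgeR). Of 27 conjugation genes and 35 cytochrome P450 genes of families 2, 3 and 4, which modify foreign compounds, 0 passed with edgeR, and 4 and 1 had an unadjusted p under 0.05, as did 6.64% of all genes.

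Organ markers were examined for shifts in tissue makeup. In the lists for skeletal muscle, heart, lens, photoreceptors, neurons, glia, liver, intestine, exocrine pancreas, epidermis, cartilage and leukocytes, 0 genes passed with edgeR, and some had several genes with an unadjusted p under 0.05. In cartilage, bone and matrix, 10 of 36 genes were lower and 2 higher at that unadjusted level, against 2.91% of all genes lower and 3.74% higher, with a median of -0.19, and the cartilage matrix gene matn1 had 135, 118 and 128 CPM with road filter 28, against 151, 148 and 148 CPM with vehicle (log2 fold change -0.23, SE 0.058, adjusted p = 0.198 by edgeR). In epidermis, 8 of 40 genes were lower and 2 higher, and the summed level was 19902.7 to 21872.3 CPM with road filter 28 and 22224 to 24746.2 CPM with vehicle. The keratin gene krt15 had 264, 290 and 240 CPM, against 334, 346 and 389 CPM with vehicle (log2 fold change -0.43, SE 0.11, adjusted p = 0.198 by edgeR). Summed levels of the intestine list were 10186.8 to 11107.5 CPM with road filter 28 and 8868.6 to 9629.2 CPM with vehicle. Those of the red cell list, given above, were also higher with road filter 28. The part of such shifts in the results above was not tested.

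Road filter 26, from the same kind of site and the same library series, was the closest match by label. It gave a much broader response. The contrast of road filter 28 with road filter 26 had 6074 genes past the threshold (27.6% of those tested), 2808 higher (12.8%) and 3266 lower (14.8%) with road filter 28. Each filter was also set against the same 3 vehicle libraries, where road filter 28 had the 41 genes above and road filter 26 had 7362 (33.5%). Of the 34 genes that rose with road filter 28, 19 were lower with road filter 28 than with road filter 26, 0 were higher, and the rest did not pass in that contrast. Of the 7 lower genes, 3 were higher and 1 was lower with road filter 28 than with road filter 26. These genes had been picked on the same road filter 28 libraries.

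Of the 13 AhR targets, 0 were higher and 7 were lower with road filter 28 than with road filter 26, against 14.8% of all genes lower. The gene cyp1a averaged 65.3 ± 4.09 CPM with road filter 28 and 85.2 ± 6.14 CPM with road filter 26 (SD, n = 3 each; log2 fold change -0.38, SE 0.096, adjusted p = 0.00632 by edgeR). The gene cyp1b1 averaged 7.95 CPM with road filter 28 and 10.31 CPM with road filter 26 (log2 fold change -0.38, SE 0.13, adjusted p = 0.034 by edgeR). The gene cyp1c1 averaged 24.2 CPM in each (log2 fold change 0.00054, SE 0.077), and ahrra averaged 0.948 CPM with road filter 28 and 0.657 CPM with road filter 26, which did not pass (log2 fold change 0.54, SE 0.35, adjusted p = 0.29 by edgeR). Of the 7 lower targets, the carrier gene slc16a9a had the largest difference, with 31.6, 28.4 and 31.7 CPM with road filter 28 and 135, 87.0 and 104 CPM with road filter 26 (log2 fold change -1.83, SE 0.15, adjusted p = 2.78e-07 by edgeR).

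Ferritin genes split in this contrast. The log2 fold changes of road filter 28 over road filter 26 were 0.27 (SE 0.14) for fthl29, -0.17 (SE 0.13) for fthl28 and -0.05 (SE 0.18) for fthl30, and none of these passed (adjusted p = 0.163, 0.392 and 0.879 by edgeR). The genes fthl31 and fthl27 were lower with road filter 28, by -0.77 (SE 0.11) and -0.71 (SE 0.078) on the log2 scale, and fth1b was higher, by 0.39 (SE 0.088, adjusted p = 0.00292 by edgeR). Among the other genes that rose with road filter 28, sqstm1 (-0.996, SE 0.083), pkhd1l1.1 (-1.05, SE 0.072), hspa4a (-0.78, SE 0.11), prdx1 (-0.52, SE 0.10) and sqor (-0.56, SE 0.074) were lower than with road filter 26, while mt2 (-0.29, SE 0.11, adjusted p = 0.0667 by edgeR) and hsp70.3 (-1.14, SE 0.42, adjusted p = 0.0526 by edgeR) did not pass.

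**Figure D4:**
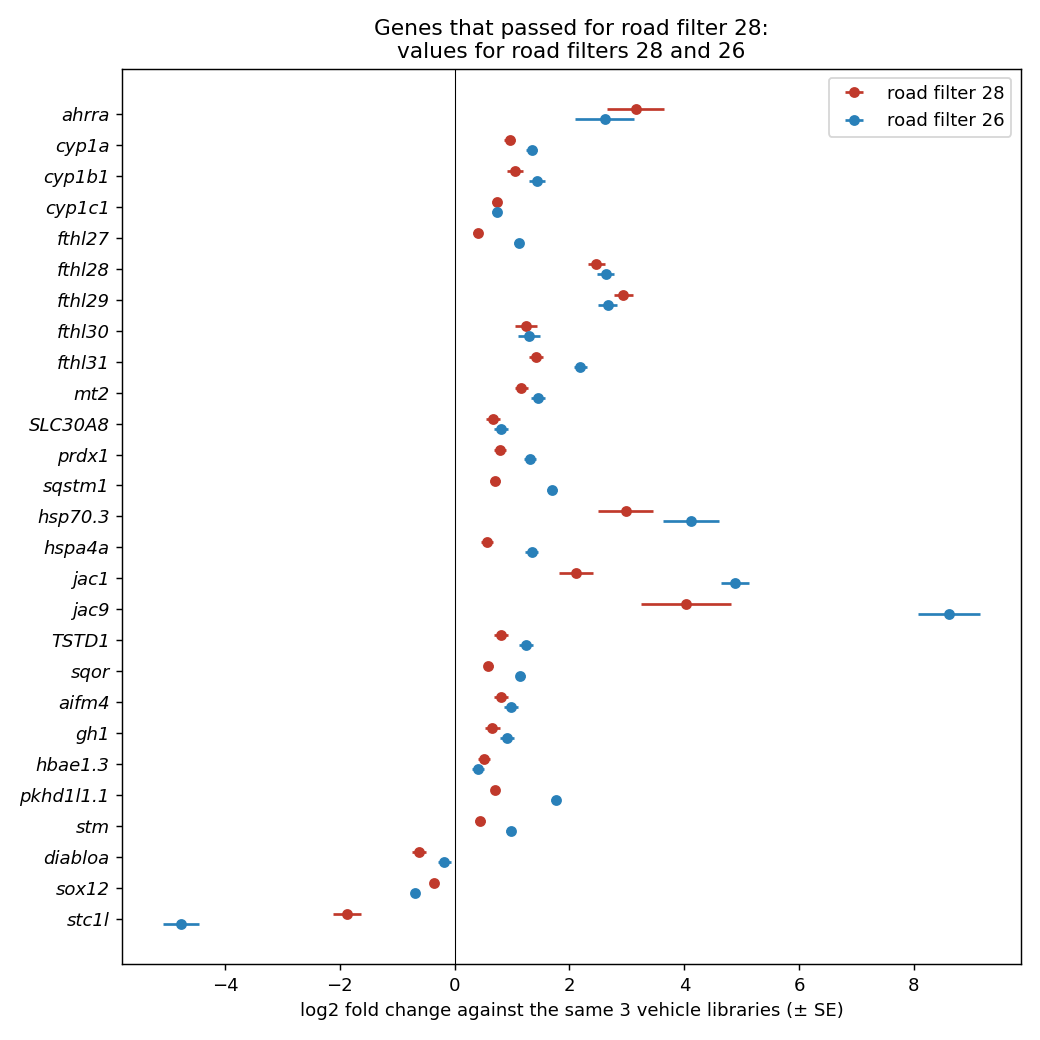
Log2 fold changes against the same 3 vehicle libraries, with bars of 1 SE, are drawn for road filter 28 (red, upper point of each row) and road filter 26 (blue, lower point) for 27 of the 41 genes that passed for road filter 28. The points of cyp1c1, fthl28, fthl29 and fthl30 lie close together, while those of jac1, jac9 and stc1l lie more than 2 log2 units apart.

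Genes of inflammation lay far from road filter 26, and their median against vehicle was near 0. Of 28 inflammation genes, 27 were lower with road filter 28 than with road filter 26, against 14.8% of all genes tested. The median log2 fold change was -2.52. Against vehicle, 0 of the 28 passed for road filter 28 with edgeR, and the median was -0.022. Single genes ran from -1.95 to 4.11. An unadjusted p under 0.05 was found for 4, all in the lower direction, against 2.91% of all genes lower. The cytokine gene il1b had 0.505, 0.296 and 0.471 CPM with road filter 28 and 10.1, 93.7 and 73.9 CPM with road filter 26, against 0.493, 0.636 and 0.874 CPM with vehicle. Its log2 fold change of road filter 28 over road filter 26 was -7.13 (SE 0.70, adjusted p = 1.46e-06 by edgeR), while the road filter 28 and vehicle libraries overlapped. The matrix protease gene mmp13a had 2.41, 2.72 and 3.22 CPM with road filter 28 and 21.3, 88.6 and 58.4 CPM with road filter 26, against 1.73, 1.91 and 1.82 CPM with vehicle (log2 fold change of road filter 28 over road filter 26 -4.34, SE 0.37). Its road filter 28 libraries all lay above vehicle, as in 7.19% of all genes tested, and it did not pass against vehicle with edgeR. In both genes road filter 26 replicate 2 was the lowest of its group and still above all road filter 28 and vehicle libraries.

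Genes of cell division lay the other way. Of 31 mitosis genes, 31 were higher with road filter 28 than with road filter 26, with a median log2 fold change of 0.94. Of 39 DNA replication genes, 36 were higher, with a median of 0.75. Over all genes tested, 12.8% were higher and 14.8% lower in the contrast of the road filters. Against vehicle, 0 genes of these lists passed for road filter 28 with edgeR, 0 had an unadjusted p under 0.05, and the medians were -0.058 and 0.012. Of 36 genes of cartilage, bone and matrix, 24 were higher and 1 was lower with road filter 28 than with road filter 26. Of 26 genes of the unfolded protein response, 20 were lower and 0 higher, with a median of -0.56, and of 34 proteasome genes, 17 were lower and 0 higher.

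Single genes on both sides show how far the road filters lay apart. The lipoprotein gene apobb.2 had 14.5, 15.2 and 12.0 CPM with road filter 28 and 1.39, 1.89 and 2.21 CPM with road filter 26, against 13.0, 22.01 and 18.9 CPM with vehicle. Its log2 fold change of road filter 28 over road filter 26 was 2.93 (SE 0.21, adjusted p = 6.91e-08 by edgeR). The transglutaminase gene tgm2a had 21.5, 19.9 and 28.4 CPM with road filter 28 and 7.13, 5.31 and 6.84 CPM with road filter 26, against 33.8, 29.9 and 32.1 CPM with vehicle (log2 fold change 1.84, SE 0.15). The gene stc1l, lower with both filters than with vehicle, had 1.93, 1.94 and 1.41 CPM with road filter 28 and 0.302, 0.0742 and 0.307 CPM with road filter 26 (log2 fold change 2.89, SE 0.34, adjusted p = 9.65e-06 by edgeR). The lectin gene jac9 had 0.505, 5.17 and 3.88 CPM with road filter 28 and 84.7, 82.5 and 61.8 CPM with road filter 26 (log2 fold change -4.57, SE 0.35).

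Harbour filter 36, also in series 37, was the filter with the most similar number of changed genes. Set against the same vehicle libraries it had 45 genes past the threshold, 38 higher and 7 lower. A contrast of road filter 28 with harbour filter 36, added after the data were seen, had 0 genes past the threshold in edgeR, 776 with an unadjusted p under 0.05 and 1 gene with DESeq2. With 3 against 2 libraries, this does not show that the extracts acted alike. The gene cyp1a had 58.2 and 59.7 CPM with harbour filter 36, fthl29 had 42.0 and 61.7 CPM, mt2 had 118 and 142 CPM and hsp70.3 had 53.02 and 40.0 CPM.

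An earlier pool exposed to road filter 28, in libraries numbered from 35 (series 35) with their own 3 vehicle and 3 mock filter libraries, shares no control with the comparison above. It is 1 library, its title carries another unexplained number, and it allows no test of its own. Of the 34 genes higher in series 37, 32 were also above the series 35 vehicle mean in that pool, and of the 7 lower genes, 7 were below it. The 2 higher genes that were not were hsp70.3 and actc1c. Over all genes with a value in both, 12839 of 21986 had the same sign. Set against mock filter extract in place of vehicle, 23 of the 34 were higher and 3 of the 7 were lower in the pool. The same count over all genes was not made for mock filter, so these counts have no background share to be read against.

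Which genes also moved with mock filter extract differed by group. The gene cyp1a had 197 CPM in the series 35 pool of road filter 28, against 31.9, 34.5 and 36.9 CPM with mock filter and 28.903, 35.9 and 37.2 CPM with vehicle of series 35. The pool minus mock filter difference in mean log2 CPM was 2.52 for cyp1a, 2.79 for ahrra, 2.302 for cyp1b1 and 1.202 for cyp1c1. The mock filter minus vehicle difference was 0.024 for cyp1a, -0.59 for ahrra, -0.078 for cyp1b1 and 0.12 for cyp1c1. For these AhR targets, mock filter lay near vehicle, apart from the very low ahrra, and the exposed pool lay above both. In the same pool, mt2 had 162 CPM, against 120, 99.1 and 109 CPM with mock filter. Likewise prdx1 had 33.7 CPM, against 30.6, 26.5 and 24.1 CPM with mock filter. The mock filter minus vehicle difference was 0.45 for mt2 and 0.31 for prdx1.

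The ferritin genes fthl29 and fthl28 did not follow the order of the AhR targets. The gene fthl29 had 51.4 CPM in the series 35 pool of road filter 28, against 61.4, 75.3 and 89.9 CPM with mock filter and 51.6, 11.8 and 17.8 CPM with vehicle of series 35. The gene fthl28 had 91.4 CPM in that pool, against 127, 118 and 115 CPM with mock filter and 55.1, 17.3 and 33.7 CPM with vehicle of series 35. In both genes the exposed pool was below all 3 mock filter libraries. The pool minus mock filter difference was 0.35 for fthl31, 0.057 for fthl30 and 0.0029 for fthl27. The gene stc1l had 0.229 CPM in the pool, against 0.0418, 2.27 and 2.46 CPM with mock filter and 5.65, 7.47 and 4.88 CPM with vehicle of series 35. For SLC30A8 the pool minus mock filter difference was -0.47. The gene hsp70.3 had 8.45 CPM in the pool, against 30.4, 35.1 and 24.7 CPM with mock filter and 5.26, 9.76 and 23.6 CPM with vehicle of series 35, so the pool was below all 3 mock filter libraries and within the range of vehicle. Series 37 holds no mock filter library, so for these genes an effect of the particles and one of an extracted blank filter cannot be told apart there.

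**Figure D5:**
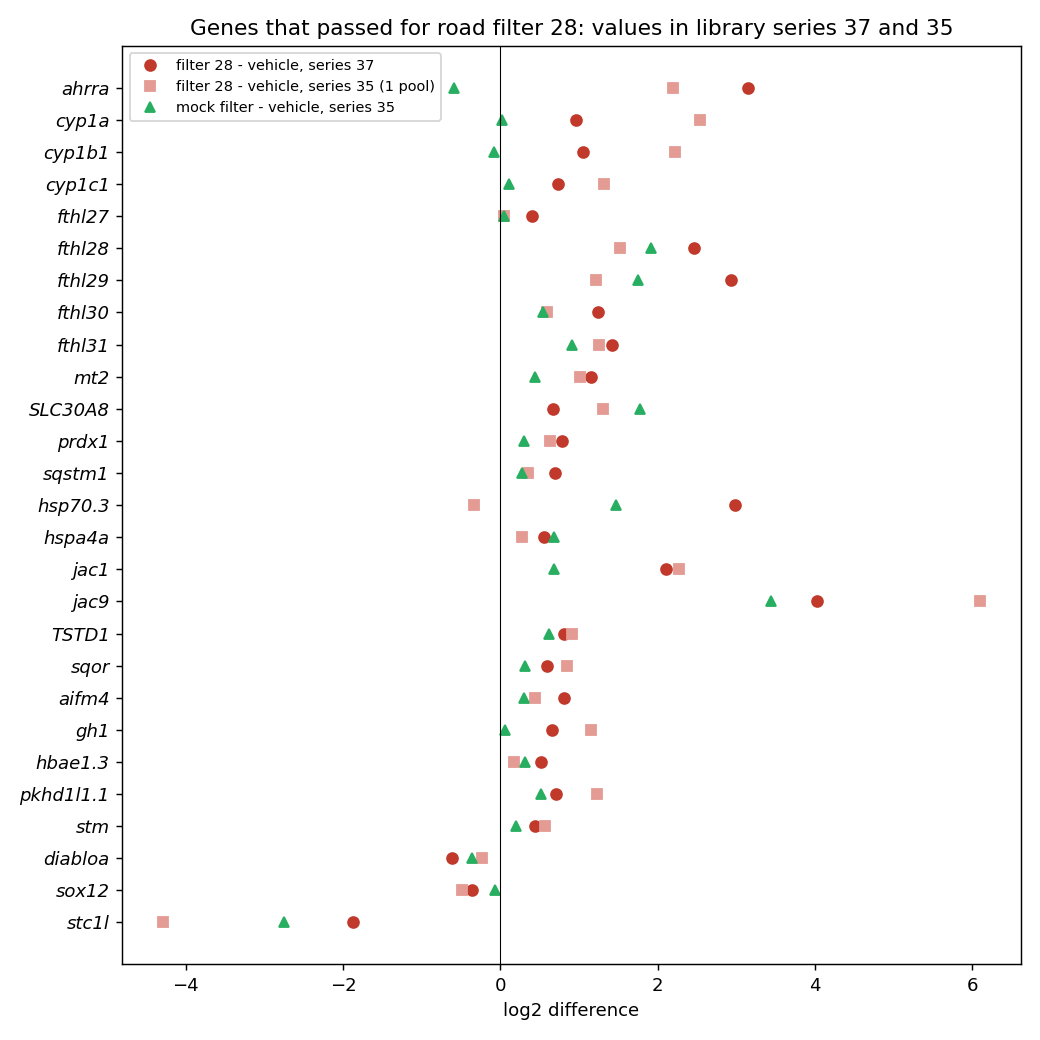
For 27 of the 41 genes, red circles give the log2 fold change of road filter 28 over vehicle in series 37, pale squares the difference of the single series 35 pool from vehicle of series 35, and green triangles the difference of mock filter from the same vehicle. For cyp1a, cyp1b1 and cyp1c1 the triangle sits near 0 with both other symbols to the right, while for fthl28, fthl29, SLC30A8 and stc1l the triangle lies on the same side as the others.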

How the data were processed

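Poly-A RNA was sequenced as read pairs from a stranded kit, per the labels' protocols. The deposited table holds raw read counts per gene for 25432 genes, and the authors' quality table gives percent of mapped and duplicate reads, read pairs and insert size (score), per the file headers. GRCz11, CASAVA and BWA are named in the submitters' processing notes; how reads were counted, with which strand setting and annotation, is not given in the sources used here.

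All 14 libraries of series 37 were fitted together with edgeR 4.0.16 in R 4.3.3 (filterByExpr, TMM, 1 coefficient per group, quasi-likelihood test), with Benjamini-Hochberg adjustment and a threshold of 0.05. SE is the log2 fold change over the root of F. Log2 CPM had a prior count of 2. Scripts were tested on simulated data. Alternatives included DESeq2 1.42.0. Pools are called biological replicates in the labels' protocols; whether they came from separate spawnings is not given there.

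Named genes were, per comparison, up to 15 passing genes in each direction ranked by fold change, if their mean log2 CPM was at least 0 and their name not provisional, all measured AhR targets and ferritins, and up to 3 genes per other list by smallest p. Calls below that level, the other Hsp70 genes and the lectin jac9 were named after their values were seen. The comparison, its members and the 46 lists were chosen with earlier results of these data known, and no list was tested as a set. Of 1315 list entries, 1233 matched a gene. Coordinates and sequences were not used here. Some genes are not reported here.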

Additional observations from a re-analysis of the deposited data

Results flagged for a closer look

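The effect of road filter 28 on cyp1a differed between the library series. In the fit of all 33 libraries, the log2 effect over vehicle in series 37 minus that in series 35 was -1.58 (adjusted p = 0.000574 by edgeR, a contrast added after the data were seen). The gene had 64.7, 69.6 and 61.5 CPM in the series 37 pools of road filter 28. The 1 pool of series 35 had 197 CPM. Vehicle levels were 30.4, 30.202 and 40.0 CPM in series 37 and 28.903, 35.9 and 37.2 CPM in series 35. Here and for the next gene, CPM were scaled over 14 libraries for series 37 and over all 33 for series 35.

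The AhR target foxq1a differed as well, by -2.30 (adjusted p = 0.0186 by edgeR). It had 26.02, 14.5 and 21.05 CPM in the series 37 pools of road filter 28 and 30.4 CPM in the series 35 pool, against 20.3, 21.2 and 23.0 CPM with vehicle in series 37 and 7.94, 7.33 and 4.27 CPM with vehicle in series 35, so its vehicle level differed between the series as well as its exposed level. These were 2 of 2 genes past the threshold among 21986, the series 35 side rests on 1 library, and the title numbers differ, so series, dose and pool cannot be told apart.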

How the results depend on the processing

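Against vehicle, the 41 genes became 116 with DESeq2 (71 higher, 45 lower), 19 in a fit of all 33 libraries, and 20 with all 4 pools of filter 28 and all 6 vehicle libraries and series as covariate. Leaving out 1 library gave 22 to 40 genes. Calls were also gained: of 66 named genes followed through the alternatives, 12 that did not pass in the main analysis passed with DESeq2. Without vehicle replicate 4 this held for 2, without road filter 28 replicate 3 for 1, and with no filter on low counts for 1. Other size factors gave 33, no filter 47, and the 6 libraries alone 45 (28 of them among the 41); the cause of these moves was not tested. Of 34 called genes with a name, 8 passed under all alternatives run (cyp1a, cyp1b1, cyp1c1, fthl28, fthl29, fthl31, mt2 and prdx1). AhR targets called were 4 throughout except 3 without vehicle replicate 6, and ferritins 3 to 5. None of these 34 changed sign under the alternatives run. Some genes that did not pass did, over the analyses without 1 library: cyp1d1 (-0.12 to 0.054), ahrrb (-0.035 to 0.57), foxq1b (-0.010 to 0.18), fth1b (-0.034 to 0.015) and foxq1a (-0.28 to 0.13). With all 4 pools cyp1d1 had 0.14 and foxq1a 0.72.

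Against road filter 26, counts stayed between 4775 and 6420. No paired analysis was possible against vehicle because road filter 28 and vehicle share only the replicate number 4. Road filters 28 and 26 share the numbers 2, 3 and 4, and their same-numbered pools also share the further number in the title. Deviations of same-numbered libraries from their group means correlated at 0.00743, 0.00245 and -0.00274 across genes. With 3 libraries a group, this cannot show whether such pools shared a spawning or a day. A replicate block gave 6420 genes. Very low genes such as ahrra, jac9 and the olfactory receptors rest on few counts, which limits their fold changes.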

Other observations

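Some members of the lists with small p-values have not been given above, and none of those named here passed the threshold with edgeR. The gene ugt1b1, of the enzymes that add glucuronic acid to foreign compounds, had 14.7, 14.2 and 13.6 CPM with road filter 28, against 8.68, 11.6 and 9.79 CPM with vehicle (log2 fold change 0.50, SE 0.11, adjusted p = 0.109 by edgeR). The gene nr0b2a, a repressor in bile acid signalling, had 8.59, 10.6 and 11.6 CPM, against 16.2, 13.8 and 26.33 CPM with vehicle (log2 fold change -0.88, SE 0.22, adjusted p = 0.205 by edgeR). The skeletal regulator gene sox9b had 22.7, 20.6 and 20.4 CPM, against 28.77, 28.82 and 24.9 CPM with vehicle (log2 fold change -0.37, SE 0.096, adjusted p = 0.213 by edgeR). In each the groups did not overlap, as in 13.0% of all genes tested.

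The called gene without a symbol that had the greatest fold change, ENSDARG00000116586, had 3.15, 2.80 and 3.44 CPM with road filter 28, against 0.296, 0.459 and 0.874 CPM with vehicle (log2 fold change 2.45, SE 0.25, adjusted p = 0.000102 by edgeR). It was chosen after its values were seen.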
